A study of Mus musculus with 12 samples.

Results

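The 4 normal-diet libraries of the series hold the baseline transcriptome of nephron progenitor cells sorted from mouse embryonic kidneys. They were chosen by their sample titles alone, and make up 4 of the 12 libraries of the series. The other libraries belong to 2 treated arms and were not analysed here, so no arm is compared. Embryos were heterozygous for the transgene Tg(Six2-EGFP/cre), labelled Six2 Cre+/tg, on the outbred CD-1 background. They came from wild-type CD1 females mated with Six2 Cre+/tg males, both 8 to 10 weeks old. The females ate the control diet from conception to E17.5, the embryonic day of dissection, by the treatment and design texts. The growth text of the labels also speaks of calorie-restricted and unrestricted females and does not tie either to these samples. Kidneys were digested with collagenase and dispase at 37 °C, GFP-positive cells were sorted, and total RNA was taken from 50000 to 100000 cells a library. By the design text, every library stands for a separate pregnant female and pools the sorted cells of her whole litter, so the spread between normal 1 to normal 4 is a spread between litters, with any technical spread included. GFP reports the activity of Six2 regulatory DNA carried by the transgene, so it marks cells with that activity and those that have kept the protein. Every library carries the transgene, and its effect cannot be told apart from the baseline.

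Nephron progenitors form the cap mesenchyme, a layer of cells around each tip of the branching ureteric bud. Six2 is a homeodomain factor that keeps these cells undifferentiated, Eya1 is its coactivator and phosphatase partner, and Cited1 is a transcriptional coregulator of the least committed cells. Gdnf from the cap signals through Ret on the ureteric tip and drives branching. Wnt9b from the bud and Wnt4 within the induced cap start the change into an epithelium, and the renal vesicles that form go on to become podocytes, proximal tubules, loops of Henle and distal tubules.

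Total counts were 10798665, 10485174, 11404335 and 8292620 in normal 1 to 4. Levels are given as CPM, counts scaled to a library of 1000000 with trimmed mean of M values (TMM) factors, which lay between 0.982 and 1.01. Between-gene comparisons use CPM per kilobase of annotated exon length. In each group of 4 values below, the order is normal 1, 2, 3 and 4. Libraries resembled each other closely, with Pearson's r across 10012 genes of 0.970 for normal 2 with normal 4, the least alike, and 0.986 for normal 1 with normal 2 and for normal 3 with normal 4, the most alike. These correlations are across genes, which are not independent replicates.

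Six2, the gene whose regulatory DNA drives the sorting reporter, is shown here by its RefSeq promoter on the minus strand at chr17:85688205-85688504 of GRCm38.p6. Its window, like the others printed here, spans 250 bases before the annotated start and 50 bases after it. Capitals mark the 50 bases from the start.
Six2: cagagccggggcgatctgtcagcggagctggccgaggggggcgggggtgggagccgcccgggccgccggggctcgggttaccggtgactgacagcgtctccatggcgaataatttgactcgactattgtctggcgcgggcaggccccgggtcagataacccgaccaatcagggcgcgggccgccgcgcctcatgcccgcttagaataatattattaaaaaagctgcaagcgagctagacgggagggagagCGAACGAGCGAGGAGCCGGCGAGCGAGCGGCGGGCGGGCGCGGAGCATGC

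All 3 defining markers of the cap mesenchyme were present in every library. Six2 had 456, 505, 378 and 431 CPM, a mean of 442 ± 52.9 CPM (SD, n = 4). Eya1 had 529, 599, 642 and 616 CPM, a mean of 596 ± 48.5 CPM. Cited1 had only 22.6, 24.6, 24.4 and 23.2 CPM, a mean of 23.7 ± 0.926 CPM. Six2 was lowest in normal 3, where Eya1 was highest, and Cited1 was nearly level across libraries. By mean CPM, Eya1 ranked 176, Six2 287 and Cited1 7302 of 49164 genes. Per kilobase the order of the first pair was the other way round, with 209 CPM per kb for Six2, 76.4 CPM per kb for Eya1 and 13.5 CPM per kb for Cited1. Six2 then ranked 100 of the 48309 genes with an exon length. Reads of the endogenous gene and of transgene sequence that matches it cannot be told apart in these counts.

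**Figure D1:**
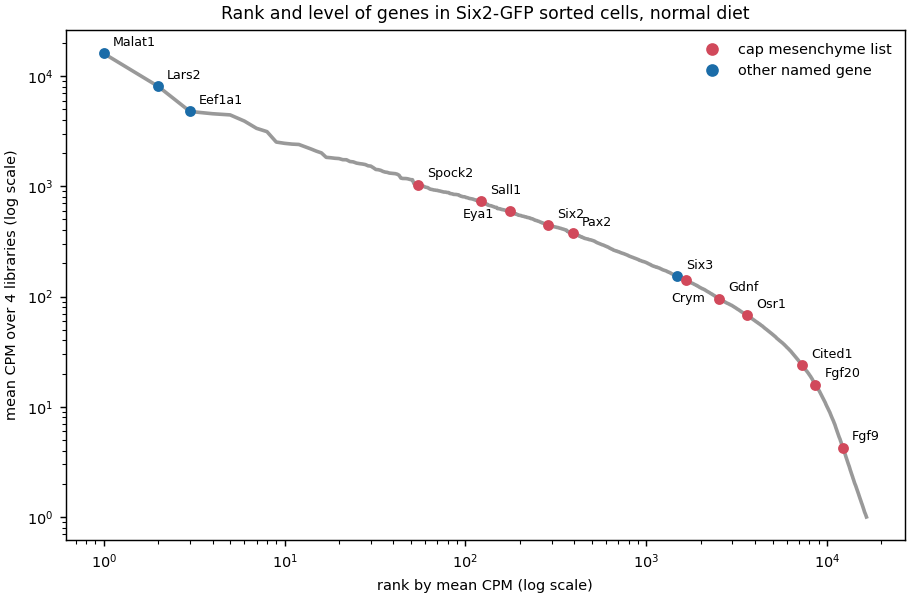
Mean CPM over the 4 normal-diet libraries against rank by CPM, both on log scales, for genes with a mean of at least 1 CPM. Red points are members of the cap mesenchyme list, which run from Spock2 at rank 55 to Fgf9 at rank 12227, and blue points are other named genes.

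Of 24 cap mesenchyme genes listed, 23 were detected, meaning at least 1 CPM in all 4 libraries. Detection does not set the cap apart from other cell types. It was met by 12 of 12 podocyte, 18 of 19 early nephron and 13 of 16 proximal tubule genes. By the same rule 12508 of 21876 protein-coding genes were detected, or 57.2%, and 15106 of all 49164 genes with counts, or 30.7%. Spock2, a proteoglycan of the matrix, led the cap mesenchyme list at 1081, 1012, 1030 and 1025 CPM. Sall1, a zinc finger factor required for kidney growth, had 708, 774, 663 and 769 CPM. Ncam1, an adhesion molecule of the condensing mesenchyme, had 432, 407, 436 and 475 CPM. Pax2, a paired-box factor needed for the kidney lineage, stood at 365, 365, 365 and 400 CPM. Between libraries, Sall1 varied by 1.17-fold from lowest to highest and Spock2 by 1.07-fold.

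The Wilms tumour factor Wt1 had 244, 215, 240 and 298 CPM, and the homeodomain factor Uncx had 243, 259, 219 and 273 CPM. Itga8, the integrin chain through which the cap receives nephronectin from the bud, had 247, 248, 271 and 285 CPM. Osr1, an early factor of the intermediate mesoderm, had 58.8, 76.5, 64.1 and 70.3 CPM. Hoxd11 had 116 to 125 CPM and Hoxa11 had 51.9 to 63.4 CPM, and both give the metanephric mesenchyme its axial identity. Their paralogue Hoxc11 had 7.77 to 10.2 CPM, and per kilobase the means were 28.6 for Hoxd11, 24.9 for Hoxa11 and 4.33 CPM per kb for Hoxc11. Other members were Dpf3 at 47.6 to 53.5 CPM, Meox1 at 26.8 to 35.3 CPM, Traf1 at 9.39 to 14.4 CPM and Tmem100 at 3.46 to 6.18 CPM. None of the 20 members with a mean of at least 10 CPM had a CV over libraries above 50%, beside 0.969% of the 10012 genes at that level. That is near the share over all genes and does not set the cap apart. The CV is the SD divided by the mean.

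Crym, a thyroid hormone binding protein of the uncommitted cap, was the list's most variable member at that level. It had 175, 147, 179 and 61.1 CPM, a CV of 39.0%. Normal 1 to 3 lay together and normal 4 was below them all. Traf1 was also lowest in normal 4, whereas Cited1, Meox1 and Six2 were not.

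**Figure D2:**
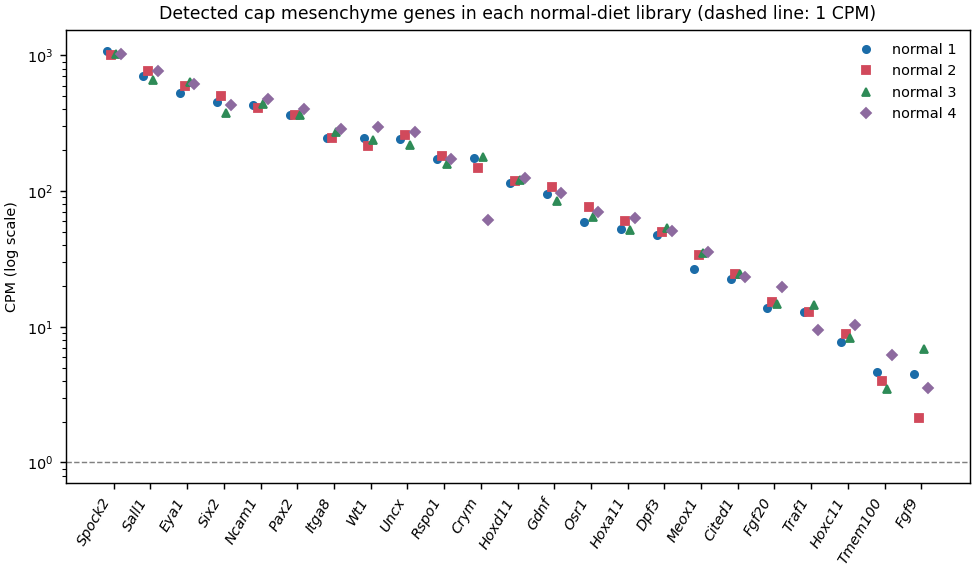
CPM on a log scale of the 23 detected cap mesenchyme genes, ordered by mean, with a point for each of the 4 normal-diet libraries. All 23 lie above the dashed line at 1 CPM in every library, as the detection rule sets, and Crym in normal 4 lies apart from its other 3 values.

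The most abundant transcript was Malat1, a nuclear long non-coding RNA, with 15502, 14990, 18090 and 15594 CPM. Lars2, which encodes the mitochondrial leucyl-tRNA synthetase, followed at 11463, 8953, 6600 and 5244 CPM, highest in normal 1 and lowest in normal 4. AY036118 ranked 5 with 5487, 4856, 3792 and 3635 CPM, in the same order of libraries. Levels of Lars2 and AY036118 are uncertain, since both carry stretches that resemble ribosomal RNA and the library kit takes total RNA. The available notes do not say how such reads were counted.

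Translation and protein folding filled much of the remaining top. Eef1a1 and Eef2, the elongation factors that load and move transfer RNA on the ribosome, averaged 4773 ± 424 and 3131 ± 222 CPM. Hsp90ab1, the constitutive cytosolic chaperone, had 4769, 5175, 4034 and 4230 CPM. H19, an imprinted non-coding RNA of fetal tissue, had 3425, 3732, 2880 and 3389 CPM. Vcan, a large matrix proteoglycan, had 3748, 3884, 4068 and 3915 CPM. The other members of the top 15 were the ubiquitin ligase gene Nedd4, the cytolinker gene Dst, the splicing-speckle gene Srrm2, Actb for cytoplasmic actin, Igfbp5 for an insulin-like growth factor binding protein, and mt-Co1 and mt-Cytb. These 7 averaged between 2083 and 2519 CPM.

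Exon length changes that order. Per kilobase, Malat1 stayed at rank 1 with 2298 CPM per kb and mt-Cytb took rank 2 with 2094 CPM per kb, followed by Eef1a1 at 1914, mt-Co1 at 1562 and Hsp90ab1 at 1518 CPM per kb. Dst, with its very long exons, ranked 503 at 59.6 CPM per kb. The 100 most abundant genes held 15.8% to 16.6% of counts in each library, and the 1000 most abundant held 46.8% to 48.3%. Protein-coding genes held 94.7 ± 0.216% of counts (SD, n = 4), and long intergenic non-coding RNAs 2.49 ± 0.143%.

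Among housekeeping classes, 81 of 85 cytosolic ribosomal protein genes, 77 of 78 mitochondrial ribosomal protein genes, 44 of 48 proteasome genes and all 31 hnRNP and SR splicing genes were detected, beside 57.2% of protein-coding genes. Cytosolic ribosomal proteins took 3.53 ± 0.272% of counts, with Rpsa at 1345, 1580, 1121 and 1303 CPM the highest by CPM. Genes of the cell cycle were broadly present: all 30 DNA replication genes and all 25 mitosis genes listed were detected. Mki67, a marker of dividing cells, had 559, 532, 525 and 441 CPM, and Mcm6 of the replicative helicase had 280, 316, 251 and 267 CPM.

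Fuel metabolism was covered on both sides. All 18 glycolysis entries and all 20 entries of the tricarboxylic acid cycle were detected, beside 57.2% of protein-coding genes. Pkm, the last kinase of glycolysis, had 774, 836, 705 and 830 CPM. Ldha, which converts pyruvate to lactate, had 311, 324, 310 and 411 CPM and was highest in normal 4. Glycolysis members were highest in normal 4 in 13 of 16 cases, beside 26.8% of all genes at this level. Atp5a1 of the ATP synthase had 744, 739, 756 and 793 CPM.

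Genes that handle ketone bodies were read for the study's theme and were chosen outside the naming rule, after their values were seen. Oxct1, the enzyme that activates acetoacetate and so lets a cell burn ketone bodies, had 179, 166, 216 and 197 CPM. Slc16a1, a monocarboxylate carrier, had 133, 133, 128 and 140 CPM, and Acat1, the thiolase after Oxct1, had 70.1, 68.3, 79.1 and 92.7 CPM. Bdh1, which oxidises beta-hydroxybutyrate, had 18.4, 11.2, 23.4 and 17.7 CPM. The beta-hydroxybutyrate receptor gene Hcar2 had 2 counts in normal 1 and 0 in the other 3 libraries.

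Transcription factors were listed by family, 539 genes in all, and 338 of them were detected. That is 62.7%, near the 57.2% of protein-coding genes. The highest per kilobase was Fos at 558 CPM per kb, with 1538, 1434, 1151 and 1127 CPM in the libraries. Egr1 followed at 398 CPM per kb, with 2092, 2036, 1527 and 1482 CPM. Jund, Jun, Fosb and Junb also stood among the 20 highest, at 322, 270, 161 and 90.8 CPM per kb. These are immediate-early or AP-1 factors, which cells induce quickly after growth signals and stress. Fos, Egr1, Jun and Junb were all higher in normal 1 and 2 than in normal 3 and 4, with no overlap. Jund was too, and Fosb only narrowly, with 998 CPM in normal 2 beside 988 CPM in normal 4. Many other genes did the same. The library orders with normal 1 and 2 on top held 6.15%, 3.87%, 8.87% and 7.70% of all genes with a mean of at least 10 CPM.

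The rest of the 20 were mostly developmental regulators. Six2 at 209 CPM per kb and Sall1 at 138 CPM per kb led them, with Pax2 at 69.1 and Uncx at 79.3 CPM per kb. Nr2f2, an orphan nuclear receptor of mesenchyme, had 875, 987, 887 and 947 CPM, or 107 CPM per kb. Sox4, Sox11 and Sox12, the SoxC factors of immature cells, had 81.1, 65.7 and 63.2 CPM per kb. Tead2, a DNA-binding partner of Yap, had 62.4 CPM per kb and the E protein Tcf3 had 87.5 CPM per kb. Atf4 of the amino acid response had 118 CPM per kb, and Id3, an inhibitor of E proteins, had 55.4 CPM per kb. Hoxc6 at 62.7 and Hoxc10 at 55.7 CPM per kb completed the 20.

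Families differed in how many members were detected. All 11 TALE factors, all 8 SMAD proteins, all 10 E2F and DP factors and all 13 factors of the Myc and Max network were detected. Of 39 HOX genes, 31 were detected. Hoxa10 had 141, 175, 130 and 162 CPM, or 46.5 CPM per kb, below Hoxc6 per kilobase. Only 2 of 12 LIM homeobox genes passed, which were Lmx1b with a mean of 101 CPM and Lhx1, a factor of the renal vesicle, with 17.9 CPM. Of 20 SOX genes 8 passed, of 9 PAX genes 3, and of 16 TBX genes 4. None of 14 NKX genes was detected. The families were read beside 57.2% detection over protein-coding genes, and no enrichment was tested.

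Relatives of Six2 were detected too. Six3, best known from the forebrain and eye, had 148, 166, 137 and 159 CPM, next to Six2 on chromosome 17 in the annotation. Six5 had 61.1, 72.2, 66.5 and 69.9 CPM, and Six4 had 59.1, 58.0, 52.0 and 49.8 CPM. Six6 was at or near 0. Misexpression of Six3 has been described for this transgenic line. All 4 libraries carry the transgene, so the contributions of the endogenous locus and of the transgene to Six3 cannot be told apart. Six3os1, annotated on the opposite strand, averaged 33.1 ± 3.19 CPM, and the available notes do not say whether counting used the strand.

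Among coactivators, 8 of 9 EYA, DACH and CITED genes were detected, beside 57.2% of protein-coding genes. Eya4 had 205, 226, 226 and 212 CPM, Dach1 had 165, 167, 181 and 182 CPM, and Cited2 had 155, 178, 155 and 195 CPM. Per kilobase, Cited1 at 13.5 CPM per kb lay below Eya4 at 23.1, Dach1 at 23.8 and Cited2 at 69.6 CPM per kb.

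Secreted ligands were detected for 102 of 200 genes, or 51.0%, and receptors for 115 of 164, or 70.1%, beside 57.2% of protein-coding genes. The highest ligand per kilobase was Mdk, midkine, a heparin-binding growth factor, at 259 CPM per kb and 341, 354, 316 and 361 CPM. Its listed receptors Ptprz1, Alk and Ltk averaged at most 1.44 CPM, and 1 of the 3 was detected. Rspo1, an amplifier of Wnt signals, had 173, 183, 159 and 172 CPM. Its receptors were present, with Lgr4 at 97.7 to 116 CPM and Znrf3, the ligase that R-spondins act on, at 98.0 to 107 CPM.

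Signals that the cap is known to exchange with its neighbours stood at intermediate levels. Gdnf had 95.1, 106, 84.5 and 96.1 CPM, and its receptor Ret, a marker of the ureteric tip, had 5.52, 8.54, 4.67 and 2.02 CPM. The coreceptor Gfra1 was high at 263, 251, 261 and 211 CPM, lowest in normal 4. Bmp7, which keeps progenitors alive and dividing, had 218, 223, 191 and 183 CPM, and all 8 SMAD proteins were detected beside it. Fgf20 had 13.7, 15.2, 14.8 and 19.7 CPM and Fgf9 had 4.49, 2.14, 6.83 and 3.57 CPM. These are survival ligands for the progenitor pool. Their receptor genes Fgfr1, with 790, 834, 769 and 798 CPM, and Fgfr2, with 275, 276, 281 and 269 CPM, were present in every library. Per kilobase, the receptors had 80.8 CPM per kb for Fgfr1 and 26.6 for Fgfr2, against 9.45 for Fgf20 and 0.915 for Fgf9.

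Wnt4, the ligand of induced cells, had 139, 115, 140 and 179 CPM and was the only WNT gene of 19 with a mean above 20 CPM. By the detection rule 8 of 19 WNT genes and 15 of 16 Frizzled and WNT coreceptor genes passed, beside 57.2% of protein-coding genes. Ptk7 led all receptors at 114 CPM per kb with 643, 584, 596 and 638 CPM. Lrp6 had 571, 559, 584 and 545 CPM, Fzd7 had 224, 207, 216 and 229 CPM, and Fzd2 had 215, 212, 187 and 182 CPM. All 4 nuclear TCF/LEF partners of beta-catenin were detected, led by Tcf7l1 at 157 to 186 CPM.

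Hedgehog signalling was covered by few genes. None of the 3 ligands was detected, with Ihh the highest by CPM at 0.777 to 2.42, and all 7 receptor and coreceptor genes were, beside 57.2% of protein-coding genes. Gas1 had 264, 308, 259 and 266 CPM, and Ptch1 had 190, 184, 176 and 175 CPM. Slit2 had 714, 677, 730 and 700 CPM, and its receptor Robo2, which restrains the site of Gdnf expression, had 1188, 1226, 1168 and 1011 CPM. Insulin-like growth factor signalling was represented by Igf2 at 249, 272, 217 and 220 CPM and by its receptor Igf1r at 491, 468, 484 and 468 CPM. Notch2, the receptor needed for proximal fates, had 564, 534, 579 and 575 CPM, with Jag1 the highest ligand of that pathway by CPM at 68.4 to 85.1.

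Vegfa, an attractant of vessels, had 244, 250, 241 and 302 CPM, and the ephrin Efnb1 had 147, 142, 150 and 166 CPM. Sema3f, Pdgfc and Vegfb completed the 12 highest ligands at 49.5, 28.2 and 23.7 CPM per kb. Among receptors, Itgb1 had 105 CPM per kb, Cntfr 57.5, Plxnb2 52.5 and Notch2 52.2 CPM per kb. None of the 56 ligand genes and none of the 88 receptor genes with a mean of at least 10 CPM had a CV above 50%, beside 0.969% of all such genes. Of 268 transcription factors at that level 3 did, and these were Hnf4a, Tfap2b and Ppara.

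**Figure D3:**
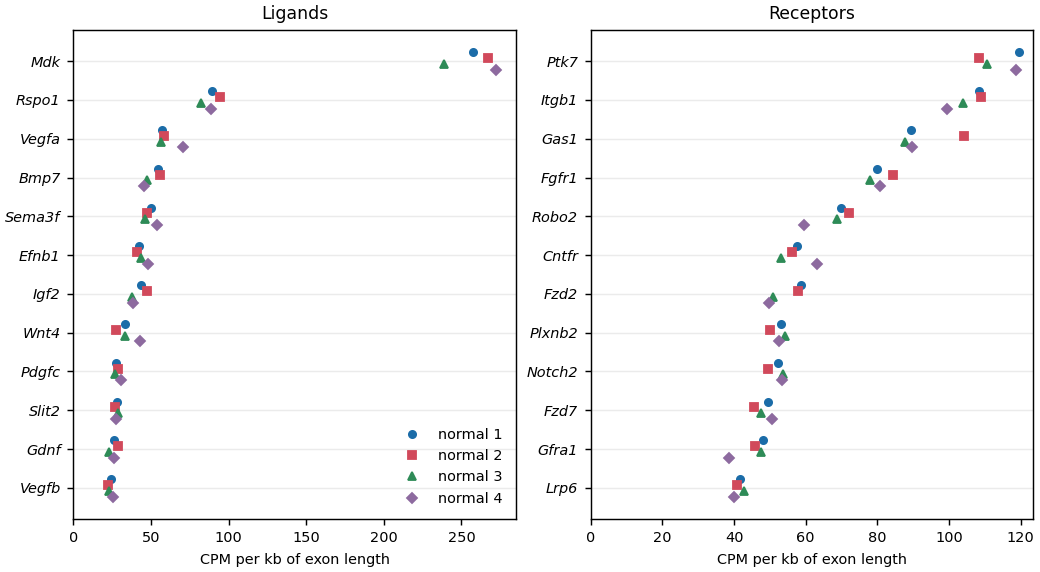
CPM per kilobase of exon length of the 12 highest ligands (left) and 12 highest receptors (right), with a point for each of the 4 normal-diet libraries. Mdk lies above every other ligand, and Ptk7, Itgb1 and Gas1 lead the receptors.

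Cells beyond the cap were read from marker lists, whose detection stands beside 57.2% over protein-coding genes. Early nephron markers were detected for 18 of 19 genes, with summed levels of 1219, 1125, 1230 and 1235 CPM. Pax8, a factor of induced mesenchyme, had 169, 191, 193 and 207 CPM. Stromal markers were detected for 12 of 15 genes. Their sum of 886 to 1028 CPM was mostly Aldh1a2, the retinoic acid enzyme, at 580, 636, 558 and 663 CPM. Foxd1, which defines the renal stroma, had 34.3, 31.6, 23.0 and 22.0 CPM, and Col1a1 had 212, 163, 114 and 113 CPM. Ureteric markers summed to 198, 211, 300 and 208 CPM, with Krt8 at 52.0, 60.3, 93.0 and 68.1 CPM. Smooth muscle and juxtaglomerular markers summed to 201, 197, 158 and 176 CPM, with 6 of 8 detected.

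Other lineages were low. Endothelial markers summed to 24.0 to 45.7 CPM, with Plvap the highest at 5.05 to 9.45 CPM. Of the 13, 7 were detected, near the share of 57.2% over protein-coding genes. Lymphoid markers summed to 3.74 to 4.52 CPM, with 1 of 8 detected. Of 14 myeloid markers 3 were detected, and Cd68, a lysosomal protein also found outside macrophages, gave 21.1 to 28.7 of their 27.1 to 45.3 CPM. Haemoglobin genes took between 0.00679% and 0.0131% of counts. In bulk RNA, fewer cells of a type and less RNA per cell cannot be told apart.

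Differentiated proximal tubule genes, by contrast, were present and differed widely between libraries. All 11 list members with a mean of at least 10 CPM had a CV above 50%, beside 0.969% of all genes at that level. The endocytic receptor Lrp2 had 206, 101, 619 and 771 CPM. Slc34a1, the phosphate carrier, had 31.4, 15.6, 70.7 and 126 CPM, and Cubn, the partner of Lrp2, had 22.1, 9.71, 67.6 and 86.3 CPM. Normal 4 was highest, then normal 3, normal 1 and normal 2, and the 11 genes shared that order without exception. Summed over the list, proximal tubule markers stood at 357, 175, 1031 and 1571 CPM. All 11 were lowest in normal 2, beside 22.8% of all genes at this level.

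The same order of libraries was held by 657 of the 10012 genes, or 6.56%, and by 49 of the 97 genes with a CV above 50%. Of those 49, 38 were not on the proximal tubule list. Among the 12 highest CVs, Pck1 of gluconeogenesis, Fbp1, the glutathione peroxidase gene Gpx3, the inositol oxygenase gene Miox, Cyp2j5 and Gatm followed it, as did the pseudogene Rps2-ps10. Gpx3 had 30.8, 20.1, 56.2 and 205 CPM and Pck1 had 5.62, 5.44, 16.8 and 73.1 CPM. Hnf4a, the nuclear receptor that drives proximal differentiation, had 12.0, 5.44, 35.1 and 40.7 CPM. As a group, cap markers were nearly level. On the log2 scale, the median cap mesenchyme gene differed from its own mean by -0.04, 0.05, -0.02 and 0.06. The median proximal gene differed by -1.27, -2.21, 0.22 and 1.12. All genes at 10 CPM or more were level too, with medians of -0.00445, 0.0163, -0.0126 and -0.00497. The median CV was 8.74% for the cap list and 7.71% over those genes, so evenness was not particular to the cap.

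Promoters of 3 proximal tubule genes are shown because their genes moved together and their windows hold GTTAAT, the core of the HNF1 binding motif, on either strand. Slc34a1 lies on the plus strand at chr13:55399398-55399697, Pck1 on the plus strand at chr2:173152823-173153122 and Slc22a6, the organic anion transporter gene, on the plus strand at chr19:8617746-8618045 (RefSeq, GRCm38.p6). Capitals mark GTTAAT or its reverse complement ATTAAC.
Slc34a1: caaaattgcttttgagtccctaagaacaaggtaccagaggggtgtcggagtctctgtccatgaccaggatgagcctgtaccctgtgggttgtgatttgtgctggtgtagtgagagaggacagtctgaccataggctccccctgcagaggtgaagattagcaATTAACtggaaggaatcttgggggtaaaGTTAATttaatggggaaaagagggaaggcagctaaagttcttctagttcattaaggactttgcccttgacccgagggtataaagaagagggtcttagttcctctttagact
Pck1: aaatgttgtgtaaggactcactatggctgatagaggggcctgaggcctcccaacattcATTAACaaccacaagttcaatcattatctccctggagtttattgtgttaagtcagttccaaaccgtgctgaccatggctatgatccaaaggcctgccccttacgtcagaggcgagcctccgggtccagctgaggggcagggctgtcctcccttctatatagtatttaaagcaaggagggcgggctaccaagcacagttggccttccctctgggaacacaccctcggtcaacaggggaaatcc
Slc22a6: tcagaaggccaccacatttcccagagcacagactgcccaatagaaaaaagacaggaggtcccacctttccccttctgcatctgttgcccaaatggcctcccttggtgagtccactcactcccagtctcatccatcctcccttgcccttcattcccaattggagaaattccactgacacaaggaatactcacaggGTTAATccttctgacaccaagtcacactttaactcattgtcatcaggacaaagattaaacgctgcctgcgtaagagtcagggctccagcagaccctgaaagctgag
Slc34a1 held 2 copies. Of the 12 list members with a RefSeq promoter 5 held it, beside 7.10% of all 32851 promoters of the same length. A listed gene counts if any of its entries holds the letters, whereas the share is over single entries. None of 14 cap mesenchyme genes with an entry held GTTAAT. At a share of 7.10% few of 14 would, so this does not set the cap apart. A match is a run of letters and not a shown binding site.

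Genes of the loop of Henle and distal tubule were mostly highest in normal 3. Slc12a1, the loop cotransporter, had 289, 98.0, 390 and 154 CPM, and Slc12a3, the distal cotransporter, had 55.4, 24.9, 123 and 32.6 CPM. The potassium channel gene Kcnj1 had 33.5, 12.9, 39.2 and 15.5 CPM. For these 3 genes normal 3 was highest, with normal 1 next, and normal 2 was lowest. The order was not shared by the whole list, of which 4 members were lowest in normal 2 and 3 in normal 4. Of 7 members at 10 CPM or more, 5 had a CV above 50% and 6 were highest in normal 3, beside 21.4% of all genes. Wnk1, a kinase with broad expression, did not vary in that way, at 651, 662, 623 and 589 CPM.

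Podocyte genes gave a further pattern. Podxl, the sialomucin of the foot processes, had 37.3, 10.1, 20.2 and 9.15 CPM, and was the member of 8 at this level with a CV above 50%. Nphs1, a gene of the slit diaphragm, was low and had the same order of libraries as Podxl, with 5.43, 1.46, 2.59 and 1.07 CPM. Podxl and Nphs1 were named after their values were seen. Tcf21 and Foxc2, which are also mesenchymal, were nearly level at 31.4 to 34.4 and 49.8 to 57.7 CPM.

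**Figure D4:**
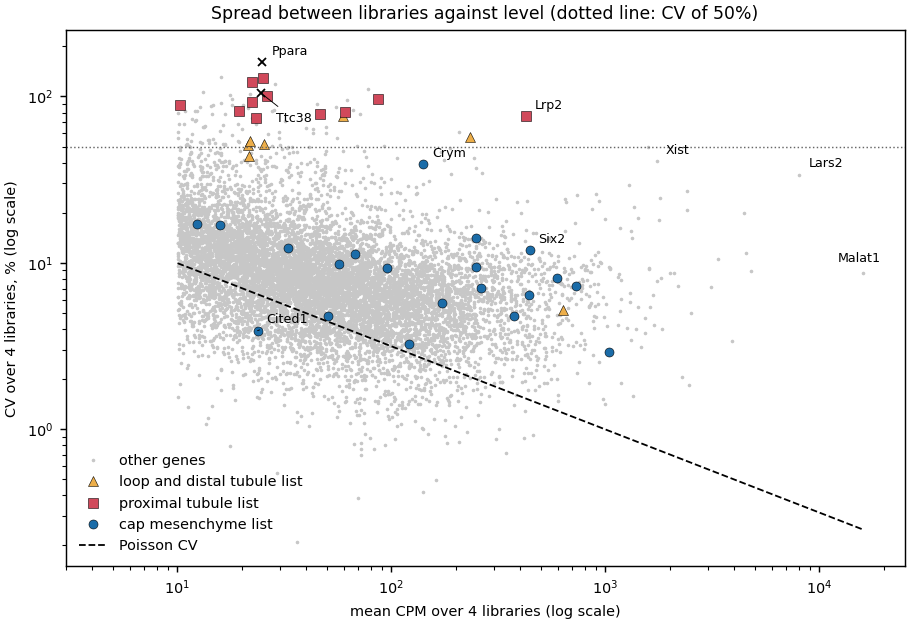
CV over the 4 normal-diet libraries against mean CPM, both on log scales, for the 10012 genes with a mean of at least 10 CPM. Proximal tubule genes (squares) and most loop and distal tubule genes (triangles) lie above the dotted line at 50%. Cap mesenchyme genes (circles) lie below it, as do most of the 10012 genes. The dashed line is the CV that Poisson counting alone gives. Crosses mark Ppara and Ttc38.

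Over all genes the spread between libraries was small. The median CV was 7.71% among the 10012 genes, beside a median Poisson CV of 4.68%, and the quartiles were 5.09% and 11.5%. Between 10 and 30 CPM the median CV was 10.8%, and between 100 and 300 CPM it was 5.69%, beside Poisson CVs of 7.42% and 2.55%. Beyond 1000 CPM the median was 8.00% over 58 genes, with a Poisson CV of 0.805%. The common biological CV, which edgeR estimates after counting noise is removed, was 11.8%.

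The most even genes lay below their Poisson CV. Ell, an elongation factor gene, had 36.0, 36.0, 36.0 and 36.1 CPM, a CV of 0.210% beside 5.24% from counting. Zgpat, Itch, Tlk2, Clp1, Ufm1, Dnajc1, Chd8, Tro, Fnbp1, Asrgl1 and Ap1b1 completed the 12 lowest, at CVs up to 0.805%. With 4 libraries and this many genes, such values say little of a gene's own stability.

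A deviation of more than 2-fold from the median of the other 3 libraries was found in 208 of 10012 genes, or 2.08%. Normal 2 gave 142 of these deviations, 124 of them below the other libraries. Normal 3 gave 75 above and 11 below, normal 4 gave 64 above and 30 below, and normal 1 gave 32 above and 56 below. A gene can count for more than 1 library.

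The largest CV belonged to Ppara, a nuclear receptor of fatty acid oxidation, with 85.0, 3.49, 5.19 and 6.06 CPM. Its counts were 908, 36, 60 and 51, and normal 1 was 17.3-fold above the mean of the other 3. Ttc38, a tetratricopeptide repeat gene, had 11.8, 63.2, 10.5 and 13.2 CPM, with 651 counts in normal 2. Both lie on the plus strand of chromosome 15 in GENCODE M21 (GRCm38), Ppara at chr15:85734983-85802819 and Ttc38 at chr15:85832306-85858822. They are 29487 bases apart, with Cdpf1 and Pkdrej between them. Cdpf1 had 2.53, 2.52, 2.77 and 2.97 CPM, and Gtse1 on the far side of Ttc38 had 10.2, 12.6, 10.5 and 8.32 CPM. The deviation of each gene therefore stood in a different library and was not shared by these neighbours, which were named after their values were seen.

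Pseudogenes made up 8 of the 97 genes with a CV above 50%, or 8.25%, beside 107 of the 10012 genes, or 1.07%. Rps2-ps10 had 1.50, 1.26, 40.0 and 71.9 CPM, and H2af-ps2 had 1.40, 45.3, 16.9 and 0.238 CPM. Gm45315, with 38.6, 44.1, 2.68 and 2.14 CPM, was high in normal 1 and 2 and low in the others. Reads of a pseudogene can be shared with its parent gene, so these levels are uncertain. Ralyl, which encodes an RNA-binding protein, completed the 12 highest with 41.6, 9.80, 19.1 and 1.31 CPM.

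The sex-linked genes moved in opposition. Xist, the RNA that coats the inactive X chromosome of female cells, had 2312, 1052, 1199 and 2397 CPM. The Y-linked gene Ddx3y had 16.2, 78.8, 75.3 and 26.9 CPM, with Kdm5d at 12.3, 58.4, 65.2 and 23.9 CPM and Uty at 8.80, 44.9, 56.6 and 16.6 CPM. Normal 1 and 4 were high in Xist and low in Y-linked transcripts, and normal 2 and 3 the other way round. Both kinds of transcript were present in every library, and each library pools a whole litter. The labels do not state the sex of the embryos. The part of sex makeup in other results was not tested.

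Broad gene groups also differed between libraries, by less. Mitochondrially encoded transcripts were highest in normal 4 or 3, with mt-Cytb at 1756, 1930, 2866 and 3030 CPM and mt-Co1 at 1986, 1985, 2765 and 2919 CPM. Of 9 such genes 6 were highest in normal 4 and 3 in normal 3, beside 26.8% and 21.4% of all genes. Cytosolic ribosomal proteins were highest in normal 2 for 67 of 79 genes, beside 32.2% of all genes. They were lowest in normal 3 for 75, beside 2620 of all 10012 genes. Immediate-early genes were highest in normal 1 for 11 of 21, beside 19.6% of all genes. The 7 that were highest in normal 2 were near the share over all genes, 32.2%. Histone genes were highest in normal 1 for 32 of 50, beside 19.6% of all genes, and their summed levels were 4104, 3795, 3033 and 2953 CPM. Their median CV was 34.2%, and 18 of 50 had 1 library over 2-fold from the others, beside 7.71% and 2.08% over all genes.

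Heat-shock genes stood highest in normal 2. Of 28 chaperone genes 23 did, beside 32.2% of all genes. Hspa8, the constitutive partner of nascent proteins, had 1439, 1750, 1120 and 1151 CPM. The stress-inducible Hspa1a had 18.0, 40.3, 6.74 and 6.66 CPM and Hspa1b had 30.4, 59.1, 11.2 and 10.6 CPM. Reads of Hspa1a and Hspa1b, near-identical copies, can be shared. Hsph1, a nucleotide exchange factor for them, had 262, 383, 164 and 165 CPM. Normal 2 was highest and normal 1 next in all 4 genes, and normal 3 and 4 were close together. The last 3 of these genes were named after their values were seen.

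The promoter of Hsph1, on the minus strand at chr5:149636287-149636586 (RefSeq, GRCm38.p6), is shown for the letters of a heat-shock element. The table holds 2 entries for the gene, and the window of the first is printed. Capitals mark GAANNTTCNNGAA, the unit bound by heat-shock factors, here as its reverse complement.
Hsph1: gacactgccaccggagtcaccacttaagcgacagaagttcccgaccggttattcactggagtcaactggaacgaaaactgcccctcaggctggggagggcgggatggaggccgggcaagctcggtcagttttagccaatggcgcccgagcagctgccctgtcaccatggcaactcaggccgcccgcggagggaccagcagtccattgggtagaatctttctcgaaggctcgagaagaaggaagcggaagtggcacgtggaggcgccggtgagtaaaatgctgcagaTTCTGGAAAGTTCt
A listed gene counts here too if any of its entries holds the element, whereas the share is over single entries. Of 25 chaperone genes with a promoter entry, 3 held this element, beside 0.603% of all 32851 promoters. They were Hsph1, Hspd1 and Hspe1, of which the last pair encode the mitochondrial chaperonin and its partner and lie head to head, so that their windows can hold the same letters.

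**Figure D5:**
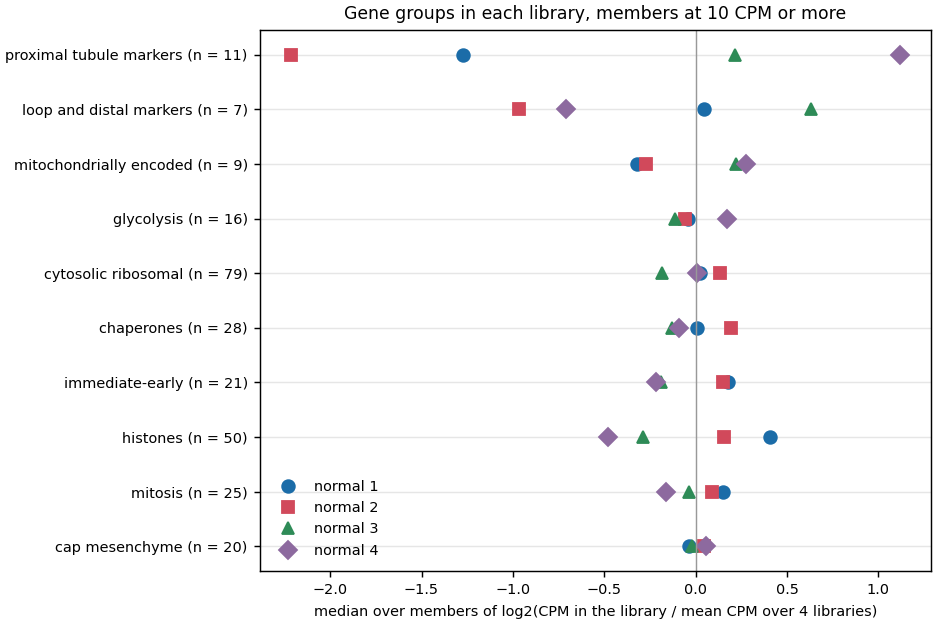
Median over members of log2(CPM in a library / mean CPM over the 4 libraries) for 10 gene groups, members with a mean of at least 10 CPM, with a point for each normal-diet library. Proximal tubule markers span from -2.21 in normal 2 to 1.12 in normal 4, whereas cap mesenchyme genes lie within 0.06 of 0. Over all genes at that level, not drawn, the medians were -0.00445, 0.0163, -0.0126 and -0.00497.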

How the data were processed

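Sorted Six2-GFP cells gave total RNA libraries made with the SMARTer Stranded Total RNA kit and sequenced as single reads of 100 cycles, per the labels' protocols. The authors deposited raw counts per gene, as whole numbers with no normalization. The submitters' processing notes name cutadapt 2.10, TopHat2 2.1.1, HTSeq 2.01 and DESeq2 1.36.0. Genome build, annotation and strand setting are not stated in what was available.

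Of 55414 entries, 6250 had no counts listed in the normal-diet columns, which left 49164. CPM used TMM library sizes (edgeR 4.0.16), with DESeq2 1.42.0 size factors as an alternative. Exon lengths came from GENCODE M21 (GRCm38), matched by Ensembl ID for 48309 genes. CV and SD are over 4 libraries, and Poisson CVs cover counting error only. No test between groups was made.

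Named genes are the cap mesenchyme list, the 15 most abundant genes, the 20 transcription factors, 12 ligands and 12 receptors highest per kilobase, the 12 highest and 12 lowest CVs, and up to 4 per list by mean. The members and lists were chosen with earlier results of these data known. Genes outside this rule were chosen after their values were seen. Some genes that this rule names are not reported here.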

Additional observations from a re-analysis of the deposited data

Results flagged for a closer look

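For each of 186 values, the gap between the highest or lowest library and its nearest neighbour was set against the range of the 4 libraries. In 13 of them, the gap exceeded Dixon's 95% critical value. Chance alone flags about 5% of values that are independent and not picked by their spread. The 186 are neither, since they share libraries and some genes, such as Ppara, were named for a high CV. The 13 are therefore not read against that share.

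Pax2 stood at 400.3 CPM in normal 4, where the other 3 libraries had about 365 CPM. Vegfa at 302 CPM and Ldha at 411 CPM were also high in normal 4, as was the gluconeogenic gene Pck1 at 73.1 CPM. Normal 2 was high for Gas1 at 308 CPM, for the chaperonin gene Hspd1 at 519 CPM and for Ttc38 at 63.2 CPM. It was low for Ihh at 0.777 CPM and Alk at 1.16 CPM, where counts are few. Ppara had 85.0 CPM in normal 1, with the other libraries between 3.49 and 6.06 CPM. By the gap as a part of the range, Pax2 had 0.987, beside 0.968 for Ppara. This ratio does not measure the size of a deviation. For Pax2 it was high because the other 3 libraries lay between 364.5 and 365.0 CPM. That range is narrower than counting error, as the median Poisson CV was 1.52% for genes between 300 and 1000 CPM.

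Among summed marker lists, the early nephron sum was low in normal 2 at 1125 CPM. The podocyte sum was high in normal 1 at 567 CPM, and the ureteric epithelium sum was high in normal 3 at 300.0 CPM. What set these libraries apart was not tested.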

How the results depend on the processing

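Levels and counts kept close to the values reported under library totals with no scaling factor and under DESeq2 size factors. Leaving out each library in turn gave 15229 to 15486 genes detected, 424 to 462 CPM for Six2, 83 to 122 genes with a CV above 50%, and a common biological CV of 10.8% to 12.7%. The count of genes with 1 library over 2-fold from the median of the other 3 was 208, ranged from 138 to 207 when a library was left out, and was 138 without normal 2. At a mean of at least 1 CPM that count was 1473, and at 50 CPM it was 29. Genes with a CV above 50% numbered 562 at a mean of at least 1 CPM and 14 at 50 CPM, so these counts rest on the minimum chosen. Requiring 5 CPM in each library left 60 ligands. With the 100 most abundant genes out of the library totals, the level of Six2 was 527 CPM, the level of Eya1 711 CPM and the level of Cited1 28.2 CPM, since the total divided by is smaller. Among single genes, 21 levels moved by more than 1 SD when a library was left out and 647 did not. The 21 were all of genes among the 12 of lowest CV. With so few libraries, leaving 1 out cannot by itself move a mean by 1 SD, so the 647 do not show stability. Ppara, counted as unmoved, fell from 24.9 to 4.93 CPM without normal 1. No paired analysis was possible because no groups are compared. Depth limits the low genes: between 1 and 10 CPM the median CV was 22.8%, beside a Poisson CV of 18.6%.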
